A study of Caenorhabditis elegans with 80 samples.

Results

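Among 40 arrays of Caenorhabditis elegans raised at 16 °C, the 10 arrays with the highest and the 10 with the lowest ratio of the major sperm protein (msp) genes were compared over every other probe. These 20 arrays come from a series of 80. The worms were recombinant inbred (RI) strains, which are inbred mosaics of the genomes of the Bristol strain N2 and the Hawaiian strain CB4856. Populations of hermaphrodites, from which males were removed, were synchronised by bleaching and collected at the third larval stage (L3), at 72 h of age for 16 °C and at 40 h for the 40 arrays of 24 °C. Every array carried total RNA of 1 RI strain in Cy3 and of another in Cy5, with partners chosen for a large genetic distance, and arrays are named here by the Cy3 strain and then the Cy5 strain. The value of a probe is the log2 ratio of those strains. The dye in the numerator is not given in the sources used here, so a ratio does not show which strain of an array had more RNA. A difference of the strains was also not told apart from one of dye, culture or hybridisation. The difference between the high and the low arrays stays the same when the sign of every array is turned. No strain pair has a second array at 16 °C, so strain pair and array cannot be told apart.

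C. elegans hermaphrodites make sperm first, in the last larval stage and the young adult, and then switch for the rest of life to oocytes. Major sperm protein is the cytoskeletal protein with which nematode sperm crawl, and it also acts as the signal that triggers oocyte maturation. Its genes form a large family of nearly identical copies that are transcribed in developing sperm. At L3 the germ line is mostly dividing and entering meiosis, and the transcription of msp genes starts as the first germ cells turn to sperm. In RNA of whole worms, more cells making sperm and more RNA in each of them cannot be told apart.

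The msp score of an array was its mean ratio over the 18 msp probes, which stand for 15 genes. The 10 high arrays scored from 0.75 to 1.33 with a median of 0.98, and the 10 low arrays from −2.08 to −0.19 with a median of −0.50. The low arrays were the more unlike each other, with a mean of −0.80 ± 0.70 (SD, n = 10) against 1.00 ± 0.20 (SD, n = 10) in the high arrays. The score leaned to one side of zero, being above 0 in 28 of the 40 arrays. Of the 10 low arrays 4 lay within 0.25 of 0. A dye offset was not tested, so a score near 0 cannot be read as equal msp RNA in both strains. The lowest were WN17/WN33 at −2.08, WN64/WN63 at −1.72, WN29/WN78 at −1.35 and WN70/WN48 at −0.99. The highest were WN43/WN40 at 1.33, WN65/WN30 at 1.19, WN16/WN34 at 1.17 and WN8/WN41 at 1.12. The limits between the groups were narrow. WN31/WN44 was the last array taken as high, at 0.75, and WN51/WN74, at 0.72, was the first left out. At the other end WN14/WN18 was taken at −0.19 and WN57/WN32 was left out at −0.16. The choice also depended on the score. Ranked by the median of the 18 probes 18 of the 20 arrays stayed, and by the mean of the 14 that vary together (described below) 17 did. On those scores WN13/WN21, taken as high, ranked 14 and 13, and WN51/WN74 ranked 6 and 7. The 20 arrays carried 40 strains. These scores chose the arrays and are given as a description, without a test.

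**Figure D1:**
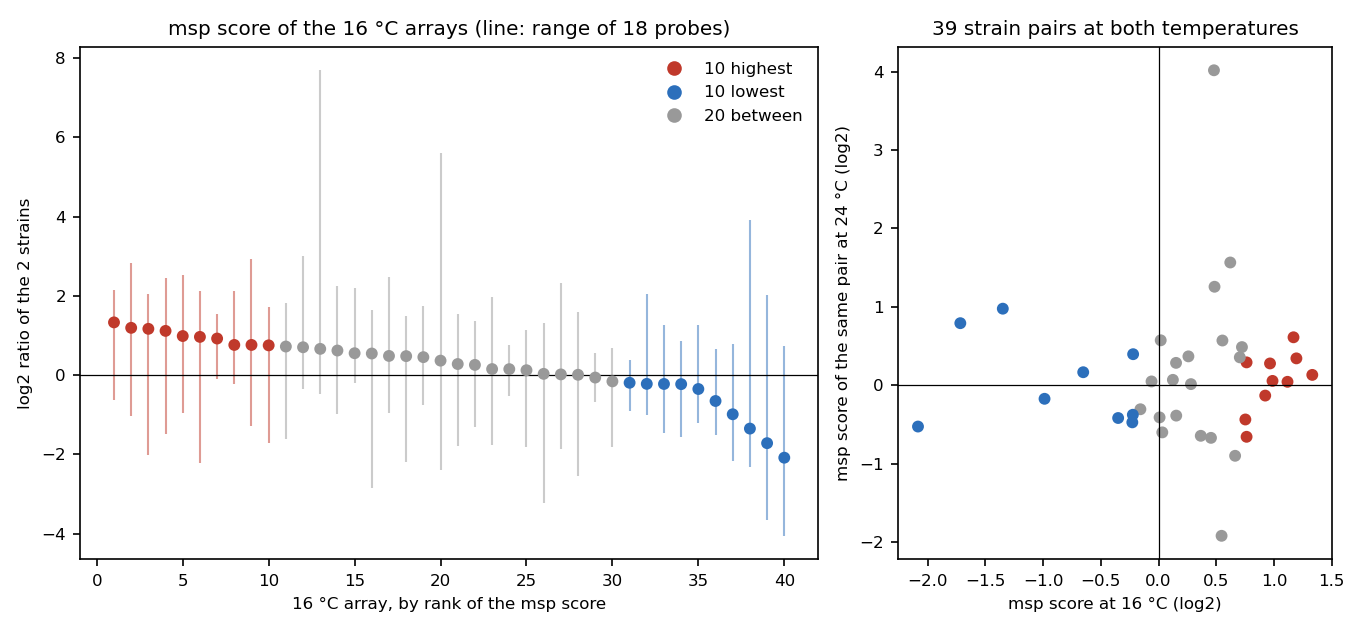
Left, the msp score (mean log2 ratio of 18 probes) of the 40 arrays at 16 °C in order of rank, with a line from the lowest to the highest of the 18 probes on each array. Right, the score of the same strain pair at 24 °C against that at 16 °C for 39 pairs. The low end falls steeply to −2.08, while the high end is flat between 0.75 and 1.33, and the points on the right have an r of 0.04.

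Not every msp probe followed the score. On 14 probes, from 13 genes, the ratio rose and fell with the mean of the other msp probes over the 40 arrays (r from 0.81 to 0.92), 7 of them on chromosome II and 7 on chromosome IV. Their difference between high and low arrays ran from 1.80 to 2.55 with a median of 2.31, and 10 of the 14 showed no overlap between the groups. Outside the msp genes 0.146% of probes showed none. The 14 probes went into the score that chose the arrays, so their separation follows from the choice and tests nothing. The ratio of msp-63 was 0.52, 1.26 and 2.02 (lowest, median and highest) in the high arrays and −2.81, −1.02 and 0.10 in the low arrays. The groups of msp-63 did not overlap, and its difference of 2.55 was the largest among the msp probes. For msp-51, with the smallest difference of the 14, the high arrays ranged from 0.08 to 2.12 and the low arrays from −2.19 to 0.00. The other 4 probes went their own way, with r from −0.19 to 0.25. They were both probes of msp-36, the probe of msp-81 and 1 of the probes of msp-45, whose other probe was among the 14. The msp-36 probes differed by −0.41 and −0.42, msp-81 by 0.03 and the msp-45 probe by 0.98, in the direction of the score but with groups that overlapped. The copies are so similar that a probe may record several genes at once, and the values of the 14 are not independent of each other.

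**Figure D2:**
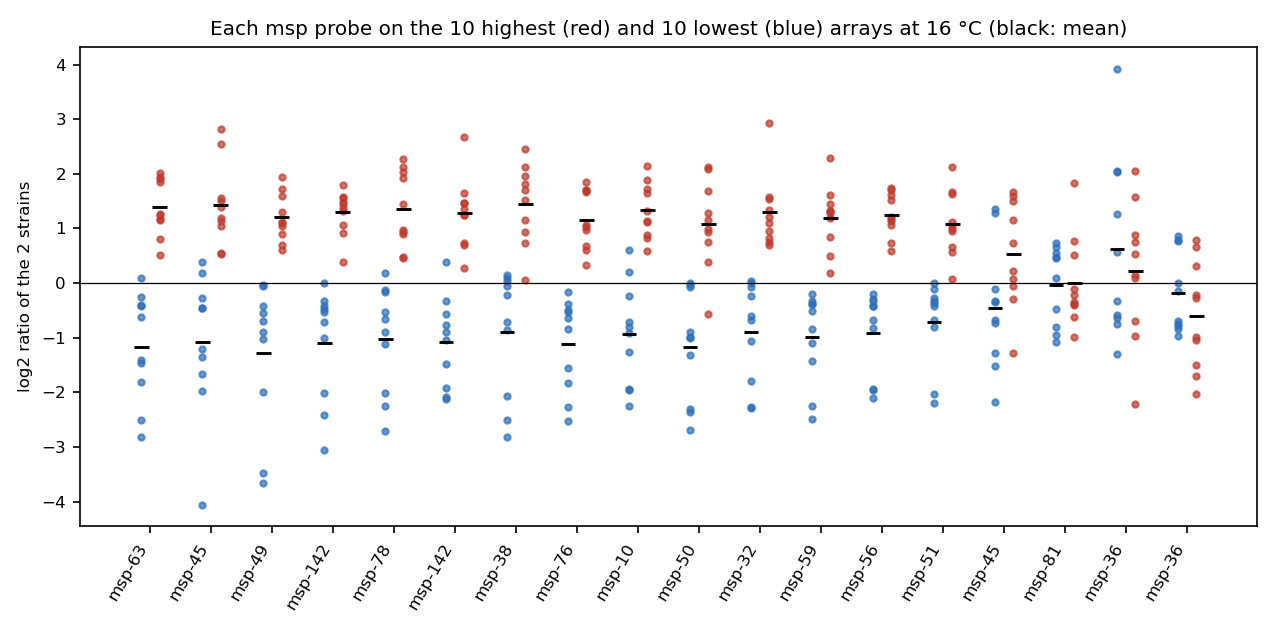
Log2 ratio of each of the 18 msp probes on the 10 high arrays (red) and the 10 low arrays (blue) at 16 °C, 1 point an array, with group means as black bars. The first 14 probes separate by 1.80 to 2.55, and the last 4 differ by −0.42 to 0.98 with groups that overlap. The mean of the 18 probes chose the arrays.

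Beyond the msp genes, the genes that went with the msp ratio included other genes of the sperm. Of the 23214 probes without an msp symbol, 253 (1.09%) differed between the high and low arrays at an adjusted p under 0.05 (limma, Benjamini-Hochberg over all of them). Probes with no symbol stayed in, and whether any of the probes records msp RNA was not tested. Of the 253 probes 243 (1.05% of all) rose, that is, had the higher ratio in the arrays with the high msp ratio, and 10 (0.0431%) fell. The differences of the 243 were large, from 1.29 to 3.26 with a median of 1.93, where the median over all probes was −0.02. They stand for 224 genes. Of the 243 probes 24 are on the list of sperm proteins described below, and 172 belong to genes known only by a sequence name. Complete separation of the 10 high from the 10 low arrays was seen for 34 probes (0.146% of all), each of them among the 243, and 2020 probes (8.7%) had an unadjusted p under 0.05. The count fell when arrays were taken from either end. Without the 3 arrays of the lowest score, WN17/WN33, WN64/WN63 and WN29/WN78, 48 probes passed the threshold, and without the 3 of the highest, WN43/WN40, WN65/WN30 and WN16/WN34, 24 did, all of them among the 253. The mean vitellogenin ratio, described below, moved with the groups, and 20 probes passed when it stood in the fit, again all among the 253.

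The 12 genes with the largest rise were nspd-2, ZC477.7, vit-3, ZK1248.17, nspd-1, msrp-6, sss-1, T08B2.12, nspd-3, T07E3.2, nspd-5 and T13F2.9, by 2.84 to 3.26. Among them are 4 of the nspd genes, which code for short nematode-specific peptides of sperm. The ratio of nspd-2 was 0.72, 1.49 and 4.52 (lowest, median and highest) in the high arrays and −3.36, −1.17 and 0.26 in the low arrays. The groups did not overlap, and the difference was 3.26 ± 0.50 (SE, limma adjusted p = 0.0016). The ratio of msrp-6 was 0.76, 1.08 and 3.10 in the high arrays and −3.03, −1.45 and −0.19 in the low arrays. Every high array thus lay above 0 and every low array below it, with a difference of 2.91 ± 0.36 (SE, limma adjusted p = 0.00044). A second probe of msrp-6 differed by −0.40 (limma adjusted p = 0.86). The ratio of sss-1, a sperm-specific gene of class S, was −1.08, 1.76 and 2.61 in the high arrays and −3.09, −0.93 and −0.31 in the low arrays. Here a single high array, WN5/WN25 at −1.08, fell among the low ones, and the difference was 2.90 ± 0.43 (SE, limma adjusted p = 0.0011). Its second probe differed by 1.95 (limma adjusted p = 0.28). T08B2.12 separated the groups fully, with 0.26 as its lowest high array and −0.03 as its highest low array, and a difference of 2.90 ± 0.35 (SE, limma adjusted p = 0.00044). ZC477.7 did so as well, with 0.40 against −0.20 and a difference of 3.10 ± 0.44 (SE, limma adjusted p = 0.00084). Disagreement between probes was common. Of the 224 genes, 37 have more than 1 probe, and 8 of those had every probe called.

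**Figure D3:**
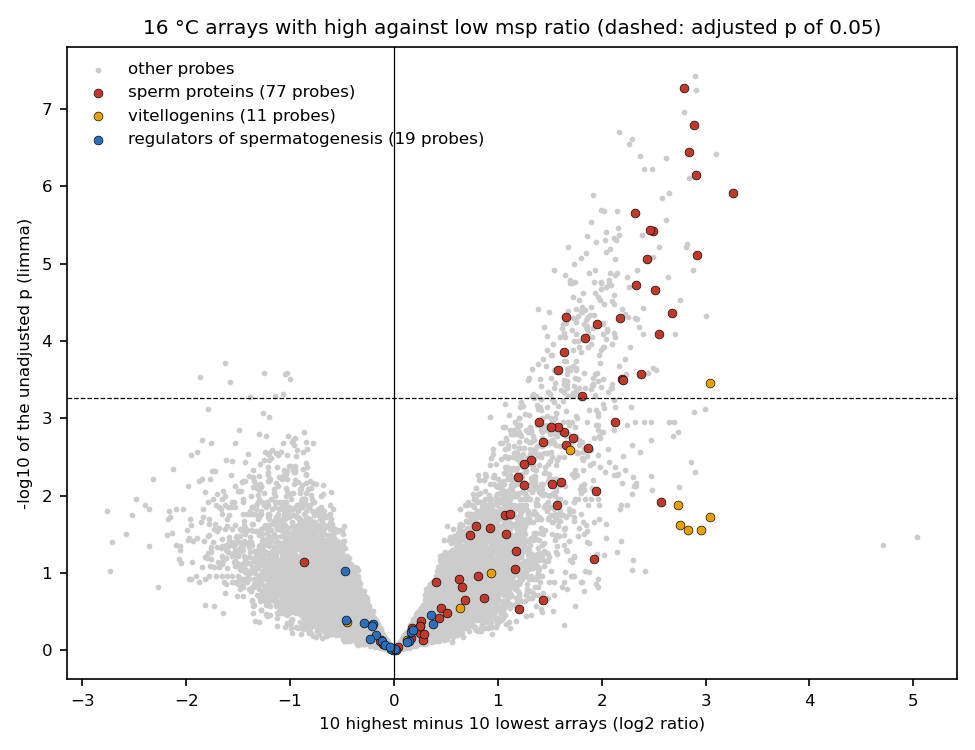
Difference between the 10 high and 10 low arrays at 16 °C (log2 ratio, horizontal) against −log10 of the unadjusted limma p (vertical) for 23214 probes, with an adjusted p of 0.05 as the dashed line. Sperm proteins (red) lie almost wholly on the right, 24 of 77 above the line, vitellogenins (orange) lie far right but mostly below the line, and regulators of spermatogenesis (blue) lie around 0.

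The sperm proteins as a list were followed by family. Of 77 probes for sperm proteins outside the msp genes, 24 rose, from 23 of 67 genes, and none fell (the share of probes that rose was 1.05% over all). The difference was above 0 for 73 of the 77 and its median was 1.43. Most of the calls were in the small families of sperm-specific proteins. In the nspd family 8 of 11 probes rose, with a median of 2.50. In the sperm-specific class P family (ssp), whose proteins hold an MSP domain, 7 of 14 rose, with a median of 1.87. The ratio of ssp-31 was 0.15, 1.22 and 2.07 in the high arrays and −3.38, −1.51 and −0.34 in the low arrays, without overlap, and its difference was 2.79 ± 0.35 (SE, limma adjusted p = 0.00044). A second ssp-31 probe differed by 0.87 (limma adjusted p = 0.81). Of the genes spch, whose proteins pack sperm chromatin, 2 of 3 probes rose, of the genes smz, whose proteins hold a PDZ domain, 2 of 4, of the class S genes 2 of 3, of msd 1 of 2 and of the class Q genes (ssq) 1 of 7.

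The spe genes, defined by mutants with defective sperm and spread over every step of sperm formation, gave a lower share of calls than the families above. Over all probes 1.05% rose. Of 29 spe probes 1 rose, spe-26, which codes for a kelch protein needed for sperm formation, by 1.64 ± 0.36 (SE, limma adjusted p = 0.02). Their differences ran from −0.86 to 2.57 with a median of 0.66. The highest, for spe-11, a sperm-supplied protein needed by the embryo, came with a wide spread. Its ratio was −0.89, 1.22 and 7.83 in the high arrays and −5.04, −0.33 and 3.42 in the low arrays, and the difference of 2.57 ± 0.94 did not pass the test (SE, limma adjusted p = 0.34). Near 0 were the presenilin gene spe-4 at −0.13 and spe-9, a surface protein of sperm required for fertilisation, at 0.25. The ferlin gene fer-1, required for the fusion of sperm organelles, had a difference of 0.51 and did not pass either. The sperm phosphatase genes gsp-3 and gsp-4, which take part in sperm meiosis and motility, had differences of 1.26 ± 0.42 (SE, limma adjusted p = 0.25) and 1.32 ± 0.40 (SE, limma adjusted p = 0.16).

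The regulators of spermatogenesis, a list of genes that act for and against the sperm fate, had 0 of 19 probes called. Over all probes 1.09% were called, so 0 calls in a list of this size say nothing of its members. The median difference was −0.06 over the 8 probes of genes that act for the sperm or male fate, with 2 above 0, and −0.03 over the 11 of genes that act for the oocyte or female fate (mog, fbf and tra genes), with 5 above 0. This division was made after the values were seen. The ratio of fog-3, required for the sperm fate, was −1.25, −0.37 and 0.32 in the high arrays and −2.31, 0.15 and 1.10 in the low arrays. The groups overlapped almost fully, with a difference of −0.29 ± 0.37 (SE, limma adjusted p = 0.9). For gld-1, an RNA-binding regulator of germ cell fate and meiosis, the difference was 0.36 ± 0.38 (SE, limma adjusted p = 0.88), and for elt-1, a GATA factor active in sperm transcription, it was −0.47 ± 0.27 (SE, limma adjusted p = 0.68). Among meiotic chromosome genes 0 of 39 probes were called (1.09% over all), with a median of 0.23 and 29 above 0. The first by p was syp-2, of the central region of the synaptonemal complex, at 1.19 ± 0.33 (SE, limma adjusted p = 0.1). Among germ granule and germline RNA genes 0 of 32 were called (1.09% over all), with a median of 0.10.

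Outside the lists, htas-1, cylc-2 and gskl-2 are named among the genes that rose, chosen after their values were seen. The sperm histone H2A variant htas-1 rose by 2.53 ± 0.58 (SE, limma adjusted p = 0.03). One probe of cylc-2 rose by 2.64 ± 0.48 (SE, limma adjusted p = 0.0056), and another, at 1.46, did not pass (limma adjusted p = 0.29). The kinase gene gskl-2, needed for male fertility, rose by 1.76 ± 0.39 (SE, limma adjusted p = 0.025). In lists named for other functions, single members rose. These were his-70, a variant of histone H3, by 1.47, cyb-2.1, a B-type cyclin, by 1.72, cyc-2.2, a cytochrome c, by 1.86, and col-152, a cuticle collagen, by 1.64. They were 1 of 26 core histone probes, 1 of 35 for DNA replication and the cell cycle, 1 of 40 for the respiratory chain and 1 of 165 for cuticle collagens, where 1.05% of all probes rose, so that a single member says nothing of its list. With 1 array left out at a time, his-70 and cyc-2.2 passed in 20 of 20 fits, cyb-2.1 in 14 and col-152 in 4. The cytochrome c gene cyc-2.2 separated the groups fully, with −0.39 as its lowest high array and −0.41 as its highest low array, and a limma adjusted p of 0.0031.

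**Figure D4:**
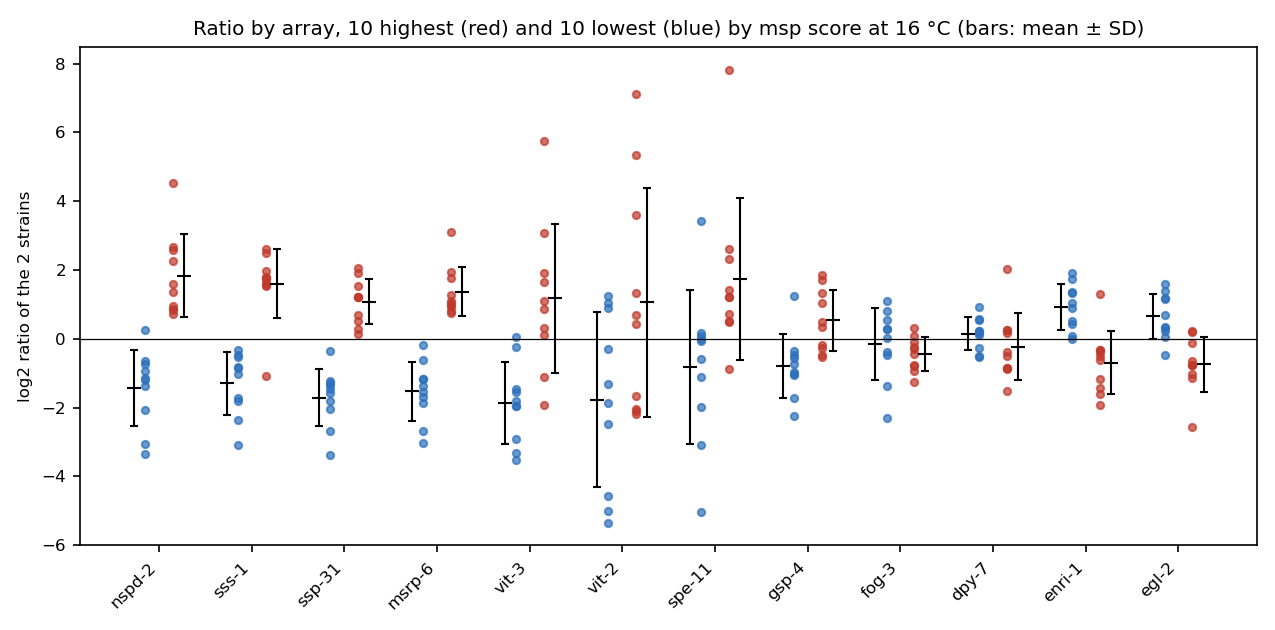
Log2 ratio of 12 genes on each of the 10 high (red) and 10 low (blue) arrays at 16 °C, with the mean ± SD beside each group. The groups of nspd-2, ssp-31 and msrp-6 do not overlap, those of vit-3, vit-2 and spe-11 overlap and spread widely, and fog-3 and dpy-7 lie together around 0.

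By chromosome, the share of probes that rose was lowest on X. Of the probes placed on chromosome I 2.47% rose (61 of 2471), on IV 2.43% (68 of 2795), on II 1.51% (46 of 3055), on III 1.22% (27 of 2221) and on V 0.645% (29 of 4497). On X the share was 0.0869% (2 of 2301), namely T04G9.7 and C07A4.3, both named after their values were seen. Sperm genes of C. elegans are known to be scarce on the X chromosome, which is silenced in the male germ line.

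The vitellogenins, the yolk proteins that the adult hermaphrodite intestine makes for oocytes, had high differences and a wide spread within the groups. Their median difference over 11 probes was 2.74, higher than that of the sperm proteins, yet 1 probe passed the test. It was a probe of vit-3, whose ratio was −1.92, 0.99 and 5.75 in the high arrays and −3.54, −1.88 and 0.04 in the low arrays, with a difference of 3.05 ± 0.72 (SE, limma adjusted p = 0.038). This call stood near the threshold, and it passed in 8 of 20 fits with 1 array left out. The other vit-3 probes differed by 0.63 and 2.96 and did not pass. The ratio of vit-2 reached from −2.19 to 7.13 in the high arrays and from −5.34 to 1.25 in the low arrays, and its difference of 2.83 ± 1.21 had a limma adjusted p of 0.48. Array by array, the mean vitellogenin ratio was above 0 in 5 of the 10 high arrays and in 2 of the 10 low arrays. Among these 20 arrays it was lowest at −3.50 in WN29/WN78, −2.76 in WN17/WN33 and −2.63 in WN64/WN63, the arrays of the lowest msp score, and highest at 4.12 in WN43/WN40, the array of the highest. Over all 40 arrays at 16 °C, however, the lowest mean was −3.86 in WN54/WN6, whose msp score was −0.06. WN65/WN30 and WN67/WN26 had high msp scores with vitellogenin means of −0.83 and −1.16. The mean ratio of the sperm proteins was above 0 in all 10 high arrays and below 0 in all 10 low arrays. It was also above 0 in 18 of the 20 arrays between them, so a mean above 0 was not particular to the high arrays. The part of the vitellogenin genes in the list of called probes was not tested beyond the fit with their mean as a covariate.

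Oocyte and early embryo genes had 0 of 37 probes called (1.09% over all), a median difference of 0.26 and 29 above 0. The largest was perm-2, of the eggshell's permeability barrier, whose ratio was −1.10, −0.03 and 5.31 in the high arrays and −3.56, −0.79 and 0.41 in the low arrays. Its difference of 2.30 ± 0.75 did not pass (SE, limma adjusted p = 0.22). For the yolk receptor gene rme-2 the difference was 0.99 ± 0.51 (SE, limma adjusted p = 0.62). Since males had been picked out of the cultures, genes of the male soma were looked at too. None of 16 such probes was called (1.09% over all), and the median was 0.16. Their mean ratio ranged from −0.71 to 0.88 in the high arrays and from −0.52 to 0.75 in the low arrays. The sensory gene lov-1 differed by 0.73 and the cwp-4 gene of male neurons by −0.99, neither past the test.

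Somatic lists that mark larval stage gave 1 called probe, col-152 among the cuticle collagens, where 1.09% of all probes were called. The furrow collagens, which peak within each moulting cycle, had differences below 0 on all 5 probes with a median of −0.38, and the ratio of dpy-7 was −1.53, −0.45 and 2.03 in the high arrays and −0.53, 0.20 and 0.93 in the low arrays. Medians were −0.12 for 25 molting probes (8 above 0) and 0.05 for 55 hedgehog-related probes (30 above 0). For 9 heterochronic probes the median was −0.43 (2 above 0), and for 16 probes of the vulva and somatic gonad −0.16 (5 above 0). Cuticle collagens other than those of the furrow had a median of 0.29, with 116 of 165 above 0. Large differences that did not pass were those of col-140 at 2.73 (limma adjusted p = 0.097), col-106 at 2.69 (limma adjusted p = 0.1) and col-139 at 2.41 (limma adjusted p = 0.085). Among tissue lists the median was −0.20 for muscle (3 of 14 above 0), 0.00 for intestine (6 of 11) and −0.19 for neurons (4 of 14). For cytosolic ribosomal proteins it was −0.13 (16 of 60 above 0). Over all probes 11194 of 23214 were above 0. A shift of these lists was not tested. The muscle myosin gene unc-54 differed by −0.02 ± 0.22 (SE, limma adjusted p = 0.99), and the gut esterase gene ges-1 by −0.14 ± 0.35 (SE, limma adjusted p = 0.96).

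Few probes fell, and no named gene among them passed the test in every leave-one-out fit. The 10 probes had differences from −1.87 to −0.997 and included the genes enri-1, ugt-36, egl-2, Y4C6B.3, cutl-10, best-14, F53B3.5 and mef-2. Leaving out 1 array at a time gave 1 to 7 probes that fell, and enri-1 passed in 15 of the 20 fits, the most of the 8 genes. The ratio of enri-1 was −1.91, −0.55 and 1.30 in the high arrays and 0.00, 0.96 and 1.91 in the low arrays, with a difference of −1.62 ± 0.36 (SE, limma adjusted p = 0.026). For the MADS-box factor gene mef-2 the high arrays ranged from −0.79 to 0.32 and the low arrays from 0.27 to 1.56, and the difference was −0.997 ± 0.23 (SE, limma adjusted p = 0.035). The potassium channel gene egl-2 differed by −1.39 (limma adjusted p = 0.048). A second probe of best-14 differed by 0.56, the other way (limma adjusted p = 0.91). The groups overlapped for each of the 10.

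Arrays outside the high and low groups show how far these genes moved together elsewhere. In the 20 arrays at 16 °C between the groups, where the score spans −0.16 to 0.72, the correlation of a called-up probe with the msp score had a median of 0.12, and 182 of 243 were above 0 (median over all probes 0.01). The same score placed these arrays in the middle, which narrows its range, so a low r there cannot be read as genes moving apart. On the 40 arrays at 24 °C each probe was set against the msp score of those arrays, which run from −1.92 to 4.02. The median r of the 243 was 0.76, from 0.13 to 0.93, and all 243 were above 0, where the median over all probes was 0.00. Without the array of the highest score, WN76/WN59, the median was 0.77 and 242 were above 0. The 10 probes that fell had a median r of −0.18. By list, the mean ratio of the sperm proteins followed the msp score with r = 0.89 and rho = 0.79 over the 40 arrays at 16 °C, and with r = 0.90 and rho = 0.90 over the 40 at 24 °C. For the vitellogenins r was 0.57 at 16 °C and 0.74 at 24 °C, and for oocyte and early embryo genes it was 0.43 and 0.62. Cuticle collagens other than those of the furrow had an r of 0.43 and 0.39, and male somatic genes of −0.12 and 0.20. These correlations are descriptions without a test, and the points share their array, their hybridisation and, at 16 °C, the choice of arrays.

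**Figure D5:**
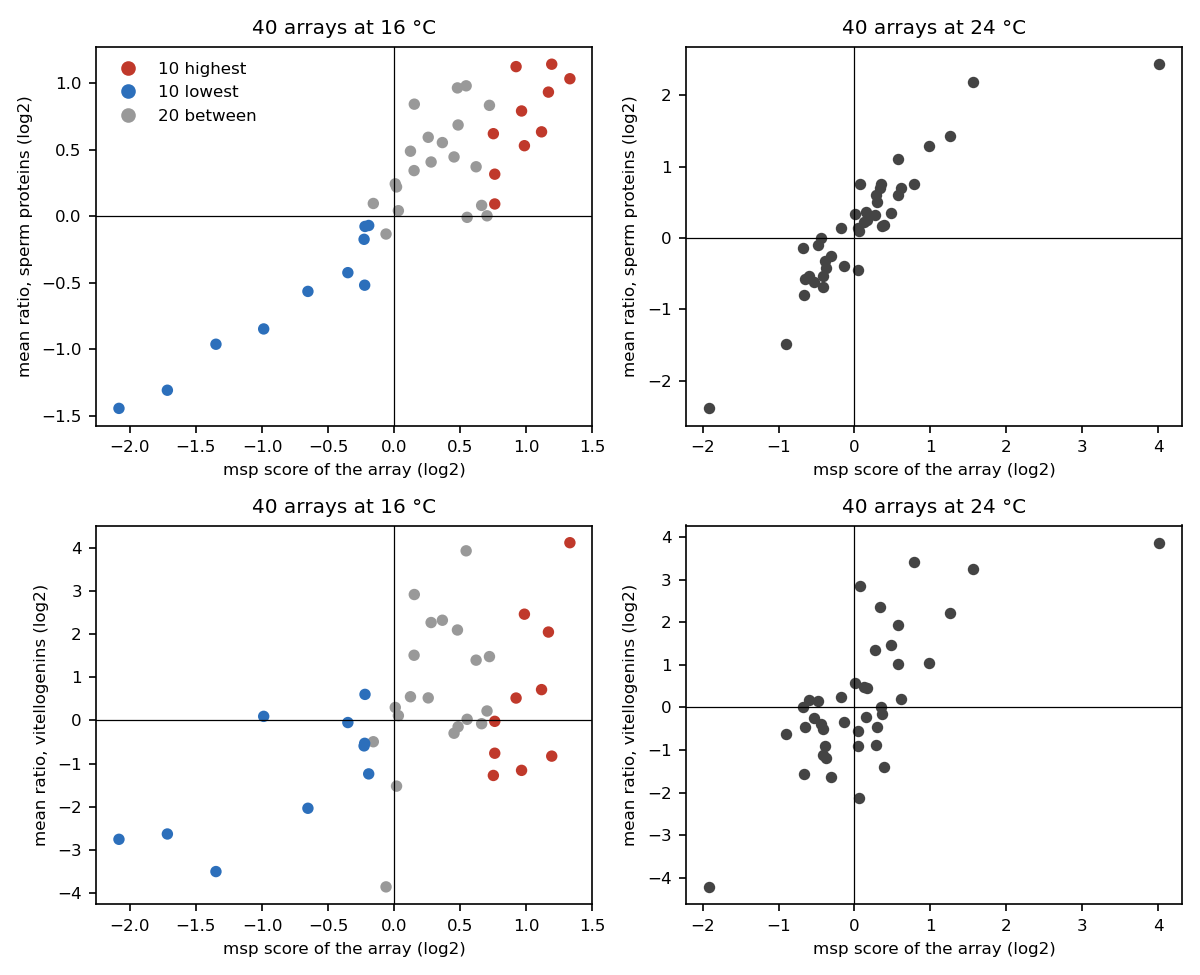
Mean log2 ratio of 77 probes for sperm proteins (top) and 11 for vitellogenins (bottom) against the msp score, 1 point an array, for the 40 arrays at 16 °C (left) and the 40 at 24 °C (right). The sperm proteins follow the score along a line at both temperatures, while the vitellogenins scatter widely around it, with means of −2.63 to −3.50 on the 3 arrays of the lowest score at 16 °C and a still lower −3.86 on an array with a score near 0.

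In worms raised at 24 °C the contrast between these groups of pairs was not detected. Of the 20 pairs 19 were hybridised again on the same dyes at 24 °C, all 10 with a high score and 9 with a low one. Their msp score at 24 °C was 0.05 ± 0.38 (SD, n = 10) in the pairs that were high at 16 °C and 0.04 ± 0.57 (SD, n = 9) in those that were low. The ranges, −0.66 to 0.61 and −0.53 to 0.98, overlapped, and the difference was 0.01 (two-sided exact permutation p = 0.96). WN64/WN63 and WN29/WN78, at −1.72 and −1.35 at 16 °C, had the highest 24 °C scores of the low pairs. None of the 14 msp probes that vary together had an unadjusted p under 0.05, and their differences had a median of 0.16. For msp-63 the difference at 24 °C was 0.30, with a 95% interval from −0.52 to 1.11. The 16 °C values of the msp probes chose the arrays, so the differences at the temperatures are not set against each other. No probe passed the threshold in the limma fit of 23232 probes at 24 °C (0%), and 831 (3.58%) had an unadjusted p under 0.05. The 243 probes that rose at 16 °C had a median difference of 0.07, with 157 above 0 and 4 with an unadjusted p under 0.05. The difference of nspd-2 was 0.09, that of msrp-6 0.09, that of sss-1 −0.24 and that of vit-3 −0.61, none with an unadjusted p under 0.05. A difference between the temperatures was not tested probe by probe.

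Over the 39 pairs hybridised at both temperatures, the msp score at 16 °C and at 24 °C had r = 0.04 (permutation p = 0.8) and rho = 0.10 (permutation p = 0.55), a family of 1 relation. Leaving out the 2 pairs whose 16 °C score lay farthest from the median gave an r of 0.04, and without WN76/WN59, whose score was 4.02 at 24 °C and 0.48 at 16 °C, it was −0.00. The sign was shared by 24 of 39 pairs. Strains that recur give a further look within 16 °C. WN38 was the Cy5 strain of WN58/WN38, at −0.22, and the Cy3 strain of WN38/WN47, at 0.62. WN80 was the Cy5 strain of WN1/WN80, at −0.35, and the Cy3 strain of WN80/WN7, at 0.15. In both cases at 16 °C the sign changed with the dye, although the partner strain changed as well. The median score of the 40 arrays was 0.32, and both WN80 arrays lay below it. With a dye offset untested, these signs cannot be read as a direction between strains. At 24 °C WN58/WN38 and WN38/WN47 had the same sign, at 0.40 and 1.57. WN1/WN80 and WN80/WN7 again differed in sign there, at −0.42 and 0.28.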

How the data were processed

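Normalized log ratios, 1 for each probe on each array, were deposited by the authors and taken as log2, since limma, which works in that base, is the tool in the submitters' processing notes (no version). Base, numerator and steps are not given in the sources used here. The table holds 23232 probes, none with a missing value, and no column was left out (0). Intensities and signal over background were not used here, so the number of arrays limits the precision. The median absolute ratio was 0.592 on every array at 16 °C and 0.661 at 24 °C, so arrays were scaled alike within a temperature. Array medians at 16 °C lay between −0.02 and 0.04, and array SDs between 1.04 and 1.48. Gene names come from the platform table (17447 probes with 1 symbol, 5785 with none), of which 17358 were matched to RefSeq WBcel235, which also gave chromosomes.

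The high and low arrays, 10 each, were compared with lmFit and eBayes of limma 3.58.1 in R 4.3.3 and Benjamini-Hochberg adjustment at 0.05, leaving out the msp probes. Pairs matched by strain and dye were fitted alike at 24 °C, and scores there were compared by exact permutation, correlations with 100000 resamples. Each array is a different strain pair, and no pair is replicated at a temperature. The arrays were chosen by measured ratios, so p-values at 16 °C measure how a probe went with the msp ratio on these arrays and compare no labelled groups. The members and the 20 gene lists were chosen with earlier results of these data known. Named are the 12 genes with the largest difference each way among called probes with 1 symbol (1 probe a gene, by p), up to 4 members a list by p, and defining genes of each tissue. A probe varies together with the msp genes where its r with the mean of the others is above 0.5.

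Alternatives were 5 and 15 arrays at each end, the median score, the score as a regressor, scaling, quantile normalization, ranks, array weights, named probes only, a threshold of 0.01, no recurring strains and each array left out. Chosen after seeing the data were the score of the msp probes that vary together, vitellogenin as a covariate and leaving out the 3 lowest or the 3 highest arrays. Data for the 16 °C comparison (23214 probes) were simulated with noise drawn independently for each probe. Of 100 probes shifted by 1 5.0% were called, and of 100 shifted by 2 45.0%, with 5 calls among 23014 unshifted. Measured probes move together over the arrays, so these shares need not hold for them. Python 3.11.15, numpy 2.4.6, pandas 2.3.3 and scipy 1.17.1 were used.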

Additional observations from a re-analysis of the deposited data

Results flagged for a closer look

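In groups of 10 arrays, a named gene was marked where its most extreme array stood apart from the others by Dixon's criterion at 95%, which chance meets in about 1 of 20 groups. It was met in 8 of 54 groups. Among the high arrays, nspd-2 was 4.52 in WN43/WN40 with the next at 2.67. The ratio of msrp-6 was 3.10 in WN31/WN44, against 1.95 for the next array, and that of nspd-3 was 3.14 in WN8/WN41, against 1.47. For sss-1 the lowest array was WN5/WN25 at −1.08, with the next at 1.54. Of the genes that fell, enri-1 reached 1.30 in WN24/WN49 with the next at −0.32, and egl-2 was −2.57 in WN67/WN26 with the next at −1.15. Among the low arrays, nspd-5 was −3.51 in WN17/WN33, the array of the lowest msp score, with the next at −2.09. The collagen gene col-152 was −3.89 in WN29/WN78 with the next at −1.51. The 8 values fell on 8 different arrays.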

How the results depend on the processing

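The count of 253 called probes at 16 °C stayed within 1.5 times under scaling, quantile normalization, ranks, array weights, named probes only, 5 arrays at each end, no recurring strains and the score of the msp probes that vary together, although of the 169 called with 5 arrays at each end 108 were among the 253. It was 120 with 15 arrays at each end, 100 at a threshold of 0.01, 483 with the median score and 588 with the score as a regressor over 40 arrays, of which 110, 100, 248 and 242 were among the 253. It fell to 48 without the 3 arrays of the lowest score, to 24 without the 3 of the highest and to 20 with the mean vitellogenin ratio as a covariate, each with 0 probes that fell. Leaving out each array gave 175 to 286. The cause of these changes was not tested. Of 17 named genes that rose, 8 passed in every setting (ZC477.7, msrp-6, sss-1, T08B2.12, nspd-3, nspd-5, T13F2.9 and ssp-31), and of the 8 that fell, 0 did. No named gene reversed. At 24 °C the count was 0 in every setting, also with each array left out. The difference in msp score at 24 °C of 0.0126 turned to −0.0303 with the median score, −0.0343 without recurring strains and −0.0327 with the msp probes that vary together. No paired analysis was possible because the high and low arrays hold different strain pairs and share no replicate numbers, and a comparison of the temperatures within pairs would use the scores that chose the arrays. Signal over background is unknown, 1 array stands for each strain pair, and shifts near 1 were mostly missed in the simulation.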
